A study of Mus musculus with 48 samples.

Results

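The genes described here take up long-chain fatty acids and oxidise them in the heart. Their RNA was measured by sequencing in ventricles of mice that lacked BMAL1, E4BP4 or both in cardiomyocytes. The 37 genes were chosen by name as members of the pathway, with earlier results of these data known. They cover carriers and lipases, the carnitine shuttle, the enzymes of mitochondrial beta-oxidation and the auxiliary enzymes for unsaturated chains. They also cover thioesterases and fuel-choice genes, droplet coats, and the nuclear receptors and coactivators of the pathway. All 37 were matched by Ensembl identifier among 53700 gene rows, and all 37 were among the 16623 genes that passed the filter on low counts.

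The series held 48 biventricular heart libraries from male C57BL/6 mice, 6 biological replicates in each of 8 groups, which form 4 mouse lines. CBK hearts came from Bmal1 flox/flox mice with an MHCα-Cre transgene (Cre +/-) and were set against BMAL1 FLOX hearts from littermates with the same floxed alleles and no Cre. CEK hearts were E4bp4 flox/flox with MHCα-Cre +/-, against Cre-free E4BP4 FLOX littermates. CBK/CEK hearts carried both pairs of floxed alleles with MHCα-Cre +/-, against Cre-free BMAL1/E4BP4 FLOX littermates. Cre CON hearts carried MHCα-Cre +/- and no floxed allele, against WT littermates. The MHCα (Myh6) promoter is active in cardiomyocytes, so the other cells of the ventricle kept their floxed genes. The floxed controls carried no Cre, and each knockout comparison therefore also held any effect of Cre itself, which the Cre CON line measured. Neither the age of the mice nor the hour at which hearts were taken is stated in the sources used here.

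Long-chain fatty acids are the main fuel of the adult heart. They enter the cell through CD36 and are bound by FABP3, are activated to acyl-CoA, cross the inner mitochondrial membrane as carnitine esters and are shortened by repeated rounds of dehydrogenation, hydration, dehydrogenation and thiolysis. Double bonds that block these rounds are moved or reduced by auxiliary isomerases and reductases. The nuclear receptor PPARα drives many genes of the pathway, and PDK4, a kinase that shuts off pyruvate dehydrogenase, turns the heart away from glucose when fatty acids are plentiful. BMAL1 is the activator of the circadian clock that binds E-box DNA, and E4BP4 (gene Nfil3) is a repressor that binds D-box DNA and is itself under clock control.

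Libraries held 13128833 to 28407868 counts assigned to genes, apart from WT replicate 1 with 126338949. E4bp4 RNA (Nfil3) averaged 0.644 ± 0.0948 CPM (counts scaled to a common library size) in CEK and 8.07 ± 1.40 CPM in E4BP4 FLOX hearts, and 1.84 ± 0.649 CPM in CBK/CEK and 9.34 ± 1.65 CPM in BMAL1/E4BP4 FLOX hearts (SD, n = 6 each). In the CBK line Nfil3 averaged 38.9 ± 5.20 CPM in CBK hearts and 10.9 ± 2.03 CPM in BMAL1 FLOX. Counts over the whole Bmal1 gene (Arntl) were higher, not lower, in the knockouts: they averaged 8.40 ± 2.41 CPM in the libraries labelled CBK and 1.04 ± 0.381 CPM in BMAL1 FLOX, and 11.8 ± 0.894 CPM in the libraries labelled CBK/CEK and 0.987 ± 0.327 CPM in BMAL1/E4BP4 FLOX. Which exon was deleted is not stated there, and the count covers exons outside it, so it does not check the Bmal1 labels. The libraries CBK 3 and 5, CEK 4 and 5 and BMAL1/E4BP4 FLOX 6 were listed as standing apart in composition, without a numeric rule. CBK 3 had 13.3% of its counts in the single row ENSMUSG00000119584. Its mean correlation with the rest of its group was 0.964, within the 0.938 to 0.967 of CBK libraries. E4BP4 FLOX 3 (mean correlation 0.948) and CEK 6 (24.4% of counts in that row) were kept. Counts that moved without the listed libraries are given beside the results. Cardiomyocyte marker RNA was abundant in every library, with summed levels of 59431 CPM or more.

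In the CBK/CEK line 1 of the 37 genes rose and 5 fell against Cre-free littermates, and the others did not pass the test. Pdk4 rose 2.75-fold, and the genes that fell were Ech1, Eci2 and Decr1, auxiliary enzymes of unsaturated fatty acid oxidation, Hadh, the dehydrogenase of medium and short chains, and Slc25a20, the acylcarnitine carrier. In CBK hearts 2 genes fell, Hadh and Ech1, and none rose. A gene is called at an adjusted p under 0.05 from edgeR's quasi-likelihood test, with Benjamini-Hochberg adjustment over all 16623 genes. By the same test none of the 37 was called for the difference of either line's effect from the Cre CON effect. The genes that fell also had negative estimates in Cre CON hearts. The 6 called genes in the CBK/CEK line were 16.2% of the 37, beside 4.28% of all genes tested, while the 2 in the CBK line were 5.41% of the 37, beside 5.14% of all genes, a share near the background. By direction, 2.2% of all genes rose and 2.08% fell in the CBK/CEK line, and 2.55% rose and 2.59% fell in the CBK line. Without the libraries that stood apart, 5 of the 37 were called lower in the CBK line (Ech1, Hadh, Eci1, Decr1 and Ppargc1a) and 4 in the CBK/CEK line (Ech1, Hadh, Slc25a20 and Ucp3), beside 5.83% and 4.22% of all genes called in either direction.

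By edgeR none of the 37 genes was called in CEK or in Cre CON hearts in the fit of each line, where 0.144% and 0.0602% of all genes were called. At an unadjusted p under 0.05, 15 of the 37 passed in the CEK line, beside 8.6% of all genes, and 13 passed in the Cre CON line, beside 9.02% of all genes. DESeq2 called 1 of the 37 in the CEK line (Hadh) and 0 in the Cre CON line. In the Cre CON line the 2 groups overlapped for every one of the 37, while they were apart for 0.608% of all genes. The estimates nevertheless lay mostly below 0 in 28 of 37 genes in the CBK line, 32 with CEK and 32 with Cre CON. With CBK/CEK 22 lay below 0, closer to the share of all genes. The genes were measured in the same hearts, so these counts are not independent observations. Of all genes, 50.1% lay below 0 in the CBK, 46.8% in the CEK, 53.2% in the CBK/CEK and 52.9% in the Cre CON line. The median log2 fold change of the 37 genes was -0.15 for CBK, -0.20 for CEK, -0.08 for CBK/CEK and -0.14 for Cre CON, against medians over all genes of -0.00, 0.02, -0.02 and -0.01. Sample names in the labels carry animal numbers that fall into a low and a high run, and the members below 0 within each run are given with no test. In the CEK line 23 of the 37 lay below 0 in the low run (median log2 difference -0.02, 3 against 2 hearts) and 30 in the high run (-0.27, 3 against 4 hearts). In the Cre CON line 33 lay below 0 in the low run (-0.35, 2 against 3 hearts) and 26 in the high run (-0.07, 4 against 3 hearts). In the CBK line the counts were 28 and 29 (-0.21 and -0.14), and in the CBK/CEK line 23 and 22 (-0.06 and -0.10).

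Fewer cardiomyocytes and less RNA per cardiomyocyte cannot be told apart in these bulk ventricle libraries.

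**Figure D1:**
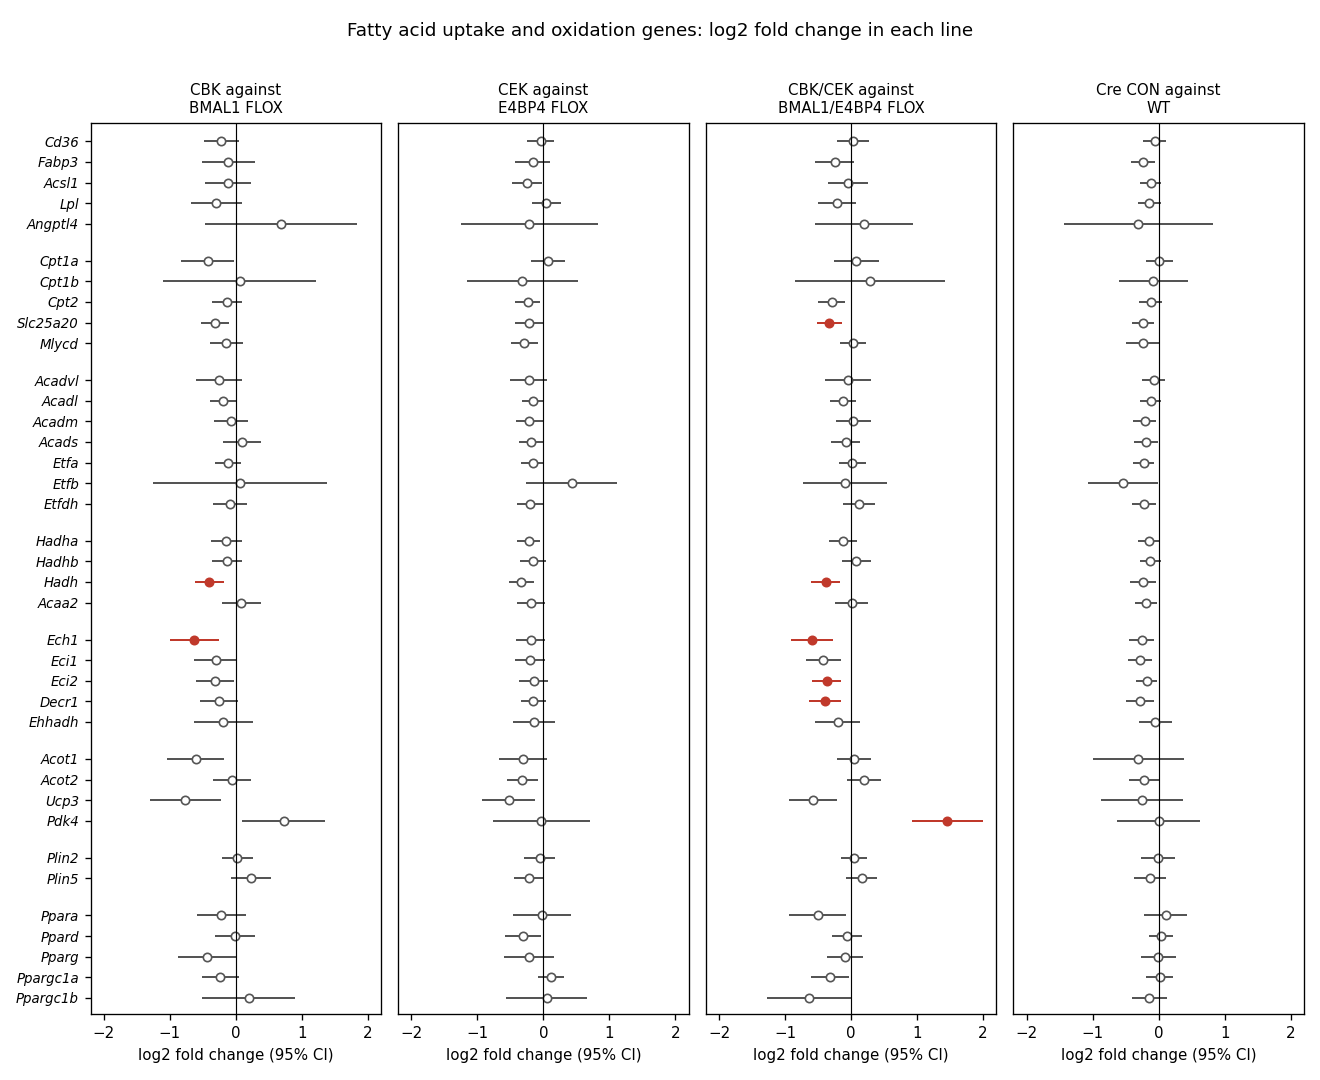
Log2 fold change (x axis) of each of the 37 genes (y axis, ordered by role) in the CBK, CEK, CBK/CEK and Cre CON lines, each against its own control. Points are edgeR estimates with 95% confidence intervals, and filled red points are genes called at an adjusted p under 0.05. Pdk4 lies far to the right in the CBK/CEK panel at 1.46, and the 4 genes Ech1, Eci1, Eci2 and Decr1 lie left of 0 in every panel.

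The whole group of genes was also compared library by library, as the mean over the 37 genes of the log2 ratio to the mean of the line's control. This mean had a lowest, median and highest value of -0.39, -0.18 and 0.06 in CBK, against -0.16, 0.00 and 0.16 in BMAL1 FLOX. It ran from -0.24 through a median of -0.18 to 0.00 in CEK, against -0.19, 0.03 and 0.09 in E4BP4 FLOX. In CBK/CEK it was -0.18, -0.10 and 0.02, against -0.09, -0.02 and 0.20 in BMAL1/E4BP4 FLOX. In Cre CON it was -0.39, -0.17 and 0.12, against -0.14, 0.02 and 0.10 in WT. The groups overlapped in every line, and the 6 Cre CON hearts were the most widely spread of the 8 groups, with replicate 1 highest. The 37 genes together took 2.185% ± 0.295 of counts in CBK and 2.49% ± 0.0632 in BMAL1 FLOX, and 2.31% ± 0.0913 in CBK/CEK and 2.33% ± 0.415 in BMAL1/E4BP4 FLOX (SD, n = 6 each). They took 1.87% ± 0.306 in CEK and 2.13% ± 0.202 in E4BP4 FLOX, and 2.24% ± 0.135 in Cre CON and 2.40% ± 0.103 in WT. These shares are of all counts, of which the single row ENSMUSG00000119584 took 4.58% to 33.4% in CEK and 6.18% to 15.3% in E4BP4 FLOX libraries. It took 34.8% in BMAL1/E4BP4 FLOX replicate 6. In CBK replicate 3 it took 13.3%, beside a median of 1.55% in CBK and at most 2.57% in BMAL1 FLOX libraries. The part of this row in the lower shares and in the lower CEK estimates was not tested.

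**Figure D2:**
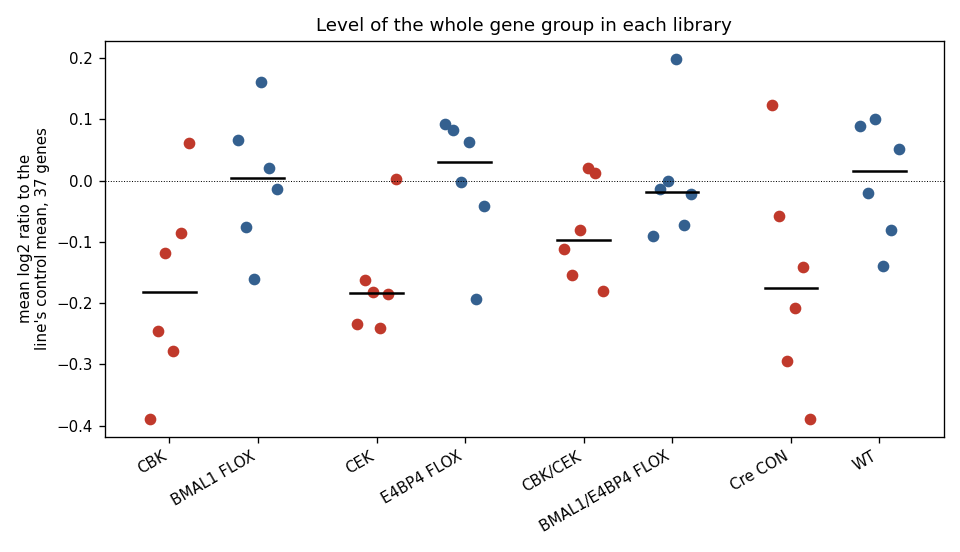
Mean log2 ratio over the 37 genes to the mean of the line's own control (y axis) in each of the 6 libraries of the 8 groups (x axis), knockout or Cre hearts in red and their controls in blue, with the group median as a bar. The CEK hearts sit between -0.24 and 0.00 and overlap the E4BP4 FLOX hearts, whose lowest library is at -0.19.

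Promoters of 5 of the called genes are shown because these genes changed in the same hearts. They are the 250 bases before the start of a RefSeq transcript on the mouse build GRCm38.p6, written 5′ to 3′ on the gene's own strand, with capitals for GC boxes (GGGCGG) and CCAAT boxes (CCAAT) found on either strand. The authors' counts were made on GRCm39, and no coordinate of that build is given here. The gene spans below come from another annotation of GRCm38 (GENCODE), whose outermost start can differ from the RefSeq start, so a window may lie inside its span, as for Eci2. Pdk4 (ENSMUSG00000019577) spans chr6:5483351-5496309 on the minus strand and its promoter is chr6:5496279-5496528. Ech1 (ENSMUSG00000053898) spans chr7:28825217-28832247 on the plus strand, with its promoter at chr7:28825088-28825337. Hadh (ENSMUSG00000027984) spans chr3:131233419-131272101 on the minus strand, with its promoter at chr3:131272102-131272351. Slc25a20 (ENSMUSG00000032602) spans chr9:108662088-108684641 on the plus strand, with its promoter at chr9:108661886-108662135. Eci2 (ENSMUSG00000021417) spans chr13:34977748-35027096 on the minus strand, with its promoter at chr13:34994145-34994394. Decr1 (ENSMUSG00000028223) spans chr4:15917240-15945507 on the minus strand.
Pdk4: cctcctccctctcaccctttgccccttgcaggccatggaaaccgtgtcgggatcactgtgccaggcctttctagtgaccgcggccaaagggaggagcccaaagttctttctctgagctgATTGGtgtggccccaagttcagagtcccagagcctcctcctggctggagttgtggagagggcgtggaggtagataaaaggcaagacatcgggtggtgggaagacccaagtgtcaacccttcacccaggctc
Ech1: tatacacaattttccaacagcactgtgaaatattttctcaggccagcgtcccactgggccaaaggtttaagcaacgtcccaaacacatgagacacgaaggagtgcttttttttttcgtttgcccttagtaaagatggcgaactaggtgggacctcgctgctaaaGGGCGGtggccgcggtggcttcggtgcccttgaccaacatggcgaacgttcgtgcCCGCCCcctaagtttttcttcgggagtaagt
Hadh: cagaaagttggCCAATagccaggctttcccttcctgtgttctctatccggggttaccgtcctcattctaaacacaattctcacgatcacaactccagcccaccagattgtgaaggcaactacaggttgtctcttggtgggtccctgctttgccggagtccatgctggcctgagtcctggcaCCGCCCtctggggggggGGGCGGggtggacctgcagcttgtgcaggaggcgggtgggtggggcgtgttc
Slc25a20: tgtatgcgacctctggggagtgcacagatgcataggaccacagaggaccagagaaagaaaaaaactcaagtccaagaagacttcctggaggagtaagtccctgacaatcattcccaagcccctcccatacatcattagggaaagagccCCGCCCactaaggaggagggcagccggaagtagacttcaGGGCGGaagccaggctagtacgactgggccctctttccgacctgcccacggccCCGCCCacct
Eci2: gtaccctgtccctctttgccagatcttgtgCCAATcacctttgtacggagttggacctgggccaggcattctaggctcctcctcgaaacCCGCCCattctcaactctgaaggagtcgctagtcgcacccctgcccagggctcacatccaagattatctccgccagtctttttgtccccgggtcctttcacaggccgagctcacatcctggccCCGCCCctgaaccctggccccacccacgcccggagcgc

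Windows from 250 bases before to 50 bases after a start were available for 31 of the 37 genes and were searched on both strands. The clock E-box CACGTG was found in 1 of the 31, Plin2, and in 8.09% of all 27025 genes. It is shown on chr4:86670045-86670074, minus strand, with the E-box in capitals, its first base 4 bases before the start.
Plin2: agctgggctatCACGTGgctcggaggcttg
Plin2, which coats lipid droplets, had a log2 fold change of 0.02 in CBK hearts. The related letters CACGTT were in none of the 31 and in 5.44% of all genes. D-box letters, TTATGTAA or TTACGTAA, were in none of the 31 and in 1.23% of all genes. The DR1 element, a direct repeat of the receptor half-site of the kind that PPARs bind, was in none of the 31 and in 0.0481% of all genes, and the RORE, a site of REV-ERB and ROR receptors, was in none of the 31 and in 0.259%. The single half-site AGGTCA, which both of these contain, was in 8 of the 31 (Cd36, Cpt1a, Acadvl, Acadm, Ucp3, Plin2, Plin5 and Pparg) and in 18.1% of all genes, and in none of the 5 promoters printed above. GC boxes were in 22 of the 31 and in 38.2% of all genes, CCAAT boxes in 17 and in 41.1%, and TATAAA in 1 (Pparg) and in 15.7%.

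Pdk4 was the 1 gene of the pathway that rose. It had a lowest, median and highest level of 301, 412 and 526 CPM in CBK/CEK hearts, against 85.8, 126 and 232 CPM in BMAL1/E4BP4 FLOX hearts. Every CBK/CEK heart lay above every control heart, a separation found for 3.53% of all genes in this line. The log2 fold change was 1.46 (SE 0.24, 95% interval 0.94 to 1.98, adjusted p = 0.00215 by edgeR), and the mean rose to 412 ± 95.1 CPM in CBK/CEK, against 149.6 ± 60.8 CPM in BMAL1/E4BP4 FLOX (SD, n = 6 each).

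In CBK hearts Pdk4 ran from 181.3 through a median of 261 to 644 CPM, against 125, 201 and 249 CPM in BMAL1 FLOX. The groups overlapped and the estimate of 0.73 (SE 0.29) did not pass the test (adjusted p = 0.221 by edgeR), with 1 CBK library, replicate 6, at 644 CPM. In CEK hearts Pdk4 was 129, 163 and 414 CPM, against 120.4, 196 and 283 CPM in E4BP4 FLOX, with an estimate of -0.03 (SE 0.33). In Cre CON hearts it was 113, 188 and 295 CPM, against 124.3, 197 and 269.7 CPM in WT, with an estimate of 0.00 (SE 0.28). The groups overlapped widely in the CEK and Cre CON lines. Within the 2 runs of animal numbers the CBK/CEK minus BMAL1/E4BP4 FLOX difference in mean log2 level of Pdk4 was 1.62 in the low run (3 against 4 hearts) and 1.62 in the high run (3 against 2 hearts). The other lines were less even: the difference was 0.89 and 0.35 in the CBK line, 0.49 and -0.55 in the CEK line, and -0.53 and 0.36 in the Cre CON line.

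**Figure D3:**
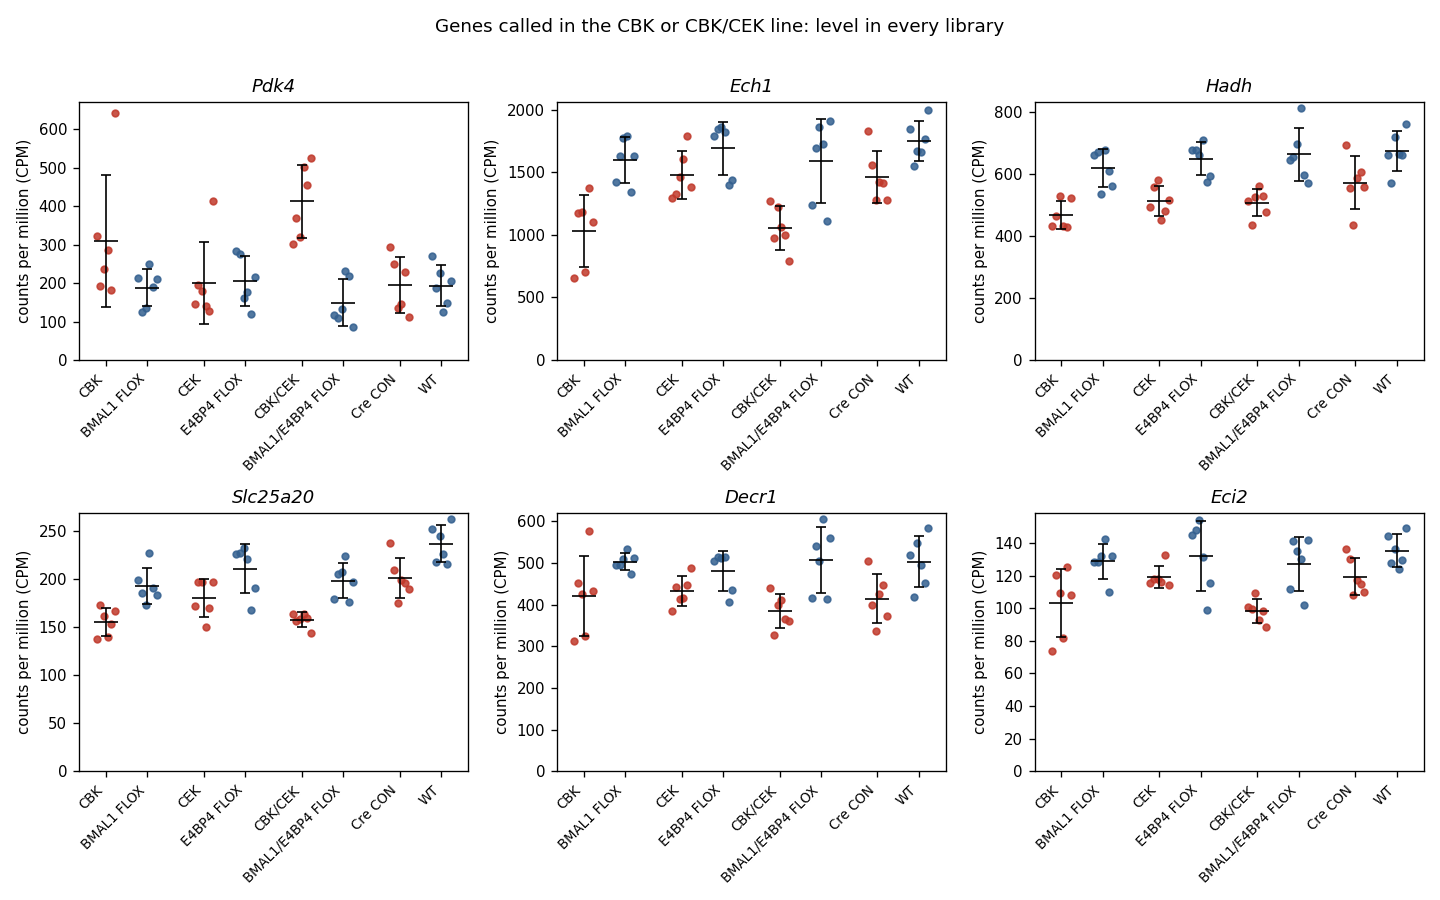
Level in CPM (y axis, from 0) of the 6 genes called in the CBK or CBK/CEK line, in each of the 6 libraries of the 8 groups (x axis), with knockout or Cre hearts in red left of their controls in blue, and mean ± SD in black. Pdk4 is above 300 CPM in all 6 CBK/CEK hearts and at most 232 CPM in all 6 BMAL1/E4BP4 FLOX hearts, while Ech1 and Slc25a20 have their lowest group medians in CBK and CBK/CEK hearts.

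The uptake and trapping genes did not pass the test in any of the 4 lines, with 0 of 5 called. They are Cd36, the fatty acid translocase, Fabp3, the heart's cytosolic binding protein, Acsl1, the main acyl-CoA synthetase, Lpl, which frees fatty acids from circulating triglyceride, and Angptl4, an inhibitor of Lpl. At an unadjusted p under 0.05, edgeR passed 0 of the 5 for CBK, 1 for CEK (Acsl1), 0 for CBK/CEK and 1 for Cre CON (Fabp3). Of all genes 15.1%, 8.6%, 14% and 9.02% passed in the same order, and DESeq2 called 0 of the 5. Cd36 averaged 1024 ± 167 CPM in CBK hearts and 1194 ± 122 CPM in BMAL1 FLOX, and 1246 ± 129 CPM in CBK/CEK and 1219.5 ± 179.96 CPM in BMAL1/E4BP4 FLOX. Lpl averaged 5585 ± 1765 CPM in CBK hearts and 6871 ± 917 CPM in BMAL1 FLOX, with 1 CBK library at 8642 CPM. Angptl4 was low, at 1.58 to 18.1 CPM over all hearts, and its 4 estimates had standard errors of 0.34 to 0.53.

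Of the 5 genes of the carnitine shuttle and its control by malonyl-CoA, Slc25a20, the carrier that exchanges acylcarnitine for carnitine across the inner membrane, was the 1 called by edgeR in the fit of each line alone. It had 144, 159.4 and 164 CPM as lowest, median and highest level in CBK/CEK hearts, against 176, 201 and 224 CPM in BMAL1/E4BP4 FLOX. The groups did not overlap, and the log2 fold change was -0.33 (SE 0.08, adjusted p = 0.0258 by edgeR, 0.0545 without the filter on low counts). In CBK hearts it had 138, 158 and 172.9 CPM, against 173.5, 188 and 228 CPM in BMAL1 FLOX, again without overlap (4.2% of all genes in this line), but the estimate of -0.31 (SE 0.09) missed the threshold (adjusted p = 0.0728 by edgeR), while DESeq2 called it (adjusted p = 0.0244). In CEK hearts it had 150.2, 184 and 197 CPM, against 168, 223 and 232 CPM in E4BP4 FLOX. In Cre CON hearts it had 176, 198 and 237 CPM, against 216, 236 and 263 CPM in WT. These last 2 pairs overlapped, with estimates of -0.22 (SE 0.10) and -0.23 (SE 0.07) that did not pass. The floxed controls themselves lay below WT for this gene: the log2 difference from WT was -0.29 in BMAL1 FLOX and -0.26 in BMAL1/E4BP4 FLOX hearts, neither called (edgeR adjusted p = 0.201 and 0.338), and line and floxed allele cannot be told apart.

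The other shuttle genes did not pass edgeR's test in the fits of single lines. Cpt2, which releases the acyl group inside the matrix, averaged 223 ± 19.9 CPM in CBK/CEK and 273 ± 26.9 CPM in BMAL1/E4BP4 FLOX, with an estimate of -0.29 (SE 0.09, adjusted p = 0.0817 by edgeR). DESeq2 called Cpt2 there (adjusted p = 0.0195), and so did edgeR in the fit of all 48 libraries (adjusted p = 0.0269) and with the animal number run as a term (adjusted p = 0.0473). Cpt1a, the liver form of the entry enzyme, which the heart also expresses, averaged 24.8 ± 6.42 CPM in CBK hearts and 33.4 ± 7.65 CPM in BMAL1 FLOX (estimate -0.43, SE 0.18, adjusted p = 0.27). Mlycd, which breaks down the inhibitor malonyl-CoA, had estimates of -0.15, -0.29, 0.03 and -0.23 in the CBK, CEK, CBK/CEK and Cre CON lines. Cpt1b, the muscle form of the entry enzyme, was counted at only 0.264 to 4.85 CPM. In the GRCm38 annotation 81.4% of its exon bases are shared on the same strand with a second gene, Gm44502, whose count was 0 in every library, and HTSeq leaves out reads that fall on 2 genes in its default mode, so the level of Cpt1b is uncertain.

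None of the 7 acyl-CoA dehydrogenase and electron-transfer genes was called in any line. Acadvl, Acadl, Acadm and Acads take the first oxidation step for very long to short chains, and Etfa, Etfb and Etfdh pass the electrons to the respiratory chain. Without adjustment, p was under 0.05 for 1 of the 7 with CBK, 5 with CEK, 0 with CBK/CEK and 5 with Cre CON, beside 15.1%, 8.6%, 14% and 9.02% of all genes, and DESeq2 called 0 of them. Acadl had 917, 961 and 1013 CPM in CEK hearts, against 1017, 1071 and 1162 CPM in E4BP4 FLOX. It was the 1 gene of the 37 whose CEK groups did not overlap, beside 0.77% of all genes, with an estimate of -0.16 (SE 0.07, adjusted p = 0.543 by edgeR). In the CBK/CEK line the 7 estimates ran from -0.12 to 0.12, and in the Cre CON line all 7 were below 0, from -0.54 to -0.07. Etfb shares 58.2% of its exon bases on the same strand with Gm45233 and Mir7051 in the GRCm38 annotation, and its counts of 8.39 to 124.4 CPM are uncertain for the same reason as those of Cpt1b. Acadvl shares 42.9% of its exon bases with Dvl2 on the opposite strand, and reads of the pair cannot be told apart if the counting ignored strand.

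Among the 4 hydratase, dehydrogenase and thiolase genes, Hadh fell in both CBK and CBK/CEK hearts. HADH is the soluble 3-hydroxyacyl-CoA dehydrogenase of the matrix, while Hadha and Hadhb encode the membrane-bound trifunctional protein and Acaa2 a thiolase. Hadh had 431, 448 and 529 CPM in CBK hearts, against 536, 636 and 678 CPM in BMAL1 FLOX. It had 437, 520.4 and 561 CPM in CBK/CEK hearts, against 572, 652 and 814 CPM in BMAL1/E4BP4 FLOX. In neither line did the groups overlap, and the log2 fold change was -0.40 (SE 0.10, adjusted p = 0.022 by edgeR) in CBK and -0.39 (SE 0.10, adjusted p = 0.0267) in CBK/CEK hearts.

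In CEK hearts Hadh had 451, 506 and 581 CPM, against 576, 671 and 709 CPM in E4BP4 FLOX. In Cre CON hearts it had 435, 574 and 694 CPM, against 571, 665 and 764 CPM in WT. The CEK groups overlapped by 1 heart, with an estimate of -0.34 (SE 0.08) and the smallest adjusted p of the 37 genes in that line (0.123 by edgeR). The Cre CON groups overlapped more widely (estimate -0.23, SE 0.09). Hadha, Hadhb and Acaa2 did not pass in these lines, with estimates from -0.22 to 0.08.

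The 5 auxiliary genes gave the most calls: 3 fell in CBK/CEK hearts and 1 in CBK hearts, and all 5 estimates were below 0 in each of the 4 lines. Ech1, a dienoyl-CoA isomerase found in mitochondria and peroxisomes, had the largest fall of these genes. It had 789, 1031 and 1274 CPM in CBK/CEK hearts, against 1109.7, 1714 and 1909 CPM in BMAL1/E4BP4 FLOX. It had 656, 1139.8 and 1374 CPM in CBK hearts, against 1342, 1628 and 1794 CPM in BMAL1 FLOX. The groups overlapped slightly in both lines, with log2 fold changes of -0.59 (SE 0.14, adjusted p = 0.0197 by edgeR) in CBK/CEK and -0.63 (SE 0.17, adjusted p = 0.0376) in CBK hearts. The CBK call was lost with RLE size factors (adjusted p = 0.0547) and with a filter of 1 CPM (adjusted p = 0.0502, both by edgeR). In CEK hearts it had 1292, 1423 and 1793 CPM, against 1395, 1805 and 1859 CPM in E4BP4 FLOX, and the estimate was -0.20 (SE 0.10). In Cre CON hearts it had 1280.2, 1416 and 1833 CPM, against 1554, 1719 and 1997 CPM in WT, and the estimate was -0.26 (SE 0.09). Neither of these passed the test.

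Eci2, an enoyl-CoA delta isomerase of peroxisomes and mitochondria, had 88.3, 98.8 and 109 CPM in CBK/CEK hearts, against 102, 133 and 142 CPM in BMAL1/E4BP4 FLOX. The groups overlapped and the log2 fold change was -0.37 (SE 0.10, adjusted p = 0.0307 by edgeR). It had 73.9, 109 and 126 CPM in CBK, against 109.9, 130.0 and 143 CPM in BMAL1 FLOX hearts. It had 114, 117 and 133 CPM in CEK, against 98.6, 138 and 154 CPM in E4BP4 FLOX hearts. It had 107.8, 116 and 136 CPM in Cre CON, against 123.7, 133 and 149 CPM in WT hearts. The groups overlapped in these 3 lines and no estimate passed (-0.32, -0.15 and -0.18).

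Decr1, the mitochondrial 2,4-dienoyl-CoA reductase, had 326, 383 and 441 CPM in CBK/CEK hearts, against 413, 524 and 605 CPM in BMAL1/E4BP4 FLOX. The groups overlapped and the log2 fold change was -0.40 (SE 0.11, adjusted p = 0.0425 by edgeR). It had 313, 429.7 and 576 CPM in CBK, against 474, 503 and 534 CPM in BMAL1 FLOX hearts. It had 386, 429 and 488 CPM in CEK, against 406, 508 and 515 CPM in E4BP4 FLOX hearts. It had 336, 412 and 504 CPM in Cre CON, against 419, 507 and 584 CPM in WT hearts. The groups overlapped in these lines and no estimate passed (-0.26, -0.15 and -0.28). Without BMAL1/E4BP4 FLOX replicate 6, Decr1 and Eci2 no longer passed in the CBK/CEK line (adjusted p = 0.0824 and 0.0579 by edgeR). Eci1, the mitochondrial enoyl-CoA isomerase, just missed there, with an estimate of -0.42 (SE 0.12, adjusted p = 0.0541 by edgeR, 0.0169 by DESeq2), and Ehhadh, the peroxisomal bifunctional enzyme, was low at 4.94 to 14.4 CPM and did not pass in any line.

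Besides Pdk4, the thioesterase and uncoupling genes gave no call by edgeR in the fit of each line alone. Ucp3, a mitochondrial carrier of the uncoupling protein family that follows fatty acid supply in muscle, averaged 31.9 ± 6.01 CPM in CBK/CEK and 47.5 ± 12.9 CPM in BMAL1/E4BP4 FLOX (estimate -0.58, SE 0.17, adjusted p = 0.06 by edgeR). In the CBK line it averaged 32 ± 8.53 CPM in CBK hearts and 54.4 ± 25.1 CPM in BMAL1 FLOX (estimate -0.77, SE 0.24, adjusted p = 0.101), with 1 BMAL1 FLOX heart at 104 CPM. DESeq2 did call Ucp3, in CBK/CEK (adjusted p = 0.0169) and in CBK hearts (adjusted p = 0.0290), and edgeR called it in the CBK/CEK line without BMAL1/E4BP4 FLOX replicate 6 (-0.68, adjusted p = 0.00938). Acot1, the cytosolic acyl-CoA thioesterase, averaged 13.3 ± 4.27 CPM in CBK hearts and 20.2 ± 4.01 CPM in BMAL1 FLOX (estimate -0.61, SE 0.20, adjusted p = 0.0974), and its estimate in the CBK/CEK line was 0.05. Acot1 and its mitochondrial neighbour Acot2 share sequence: 13.6% of the 50-base words of Acot1 transcripts and 24.5% of those of Acot2 occur in the other, so their counts are partly uncertain. The droplet coats Plin2 and Plin5 had estimates of 0.02 and 0.22 for CBK, -0.06 and -0.22 for CEK, 0.04 and 0.16 for CBK/CEK, and -0.01 and -0.13 for Cre CON, none of which passed.

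The receptors and coactivators of the pathway did not pass the test in any line. Ppara, the PPARα gene, averaged 7.98 ± 1.3 CPM in CBK/CEK and 11.5 ± 4.47 CPM in BMAL1/E4BP4 FLOX (estimate -0.51, SE 0.20, adjusted p = 0.227 by edgeR), with 1 control heart at 19.9 CPM. That control group also lay above WT, where Ppara averaged 7.12 ± 1.73 CPM (log2 difference 0.66, adjusted p = 0.254). Ppargc1a, the coactivator PGC-1α, averaged 54.6 ± 6.49 CPM in CBK/CEK and 68.4 ± 14.4 CPM in BMAL1/E4BP4 FLOX (estimate -0.32, SE 0.13, adjusted p = 0.234), and 53.8 ± 9.66 CPM in CBK hearts and 63.3 ± 7.56 CPM in BMAL1 FLOX (estimate -0.23, SE 0.12, adjusted p = 0.399). Without CBK replicates 3 and 5 Ppargc1a passed in the CBK line, at -0.40 (adjusted p = 0.0312). Ppard, Pparg and Ppargc1b had estimates from -0.63 to 0.19 over the 4 lines. An unadjusted p under 0.05 was found by edgeR for 1 of these 5 genes with CBK, 1 with CEK, 3 with CBK/CEK and 0 with Cre CON. Of all genes 15.1%, 8.6%, 14% and 9.02% passed in the same order, and DESeq2 called 0 of the 5.

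Levels were compared between genes per kilobase of annotated exon (union of exons, GRCm38) in the 6 WT hearts. Fabp3 was highest at 2989 ± 275 CPM per kilobase, although 37.3% of the 50-base words of its transcripts are shared with other genes, most with the pseudogene Fabp3-ps1. Ech1 at 766 ± 68.6 and Acaa2 at 749 ± 76.4 CPM per kilobase followed and did not differ beyond their SD, and the same held for Lpl at 569 ± 39.4 and Acadl at 563 ± 29.1. Hadh stood at 136 ± 13, Decr1 at 129.6 ± 15.7, Pdk4 at 55.2 ± 15, Slc25a20 at 48.9 ± 3.96 and Eci2 at 24.4 ± 1.81 CPM per kilobase. The receptors Ppard, Pparg and Ppara were near the end of the order, at 1.86 to 4.33 CPM per kilobase.

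**Figure D4:**
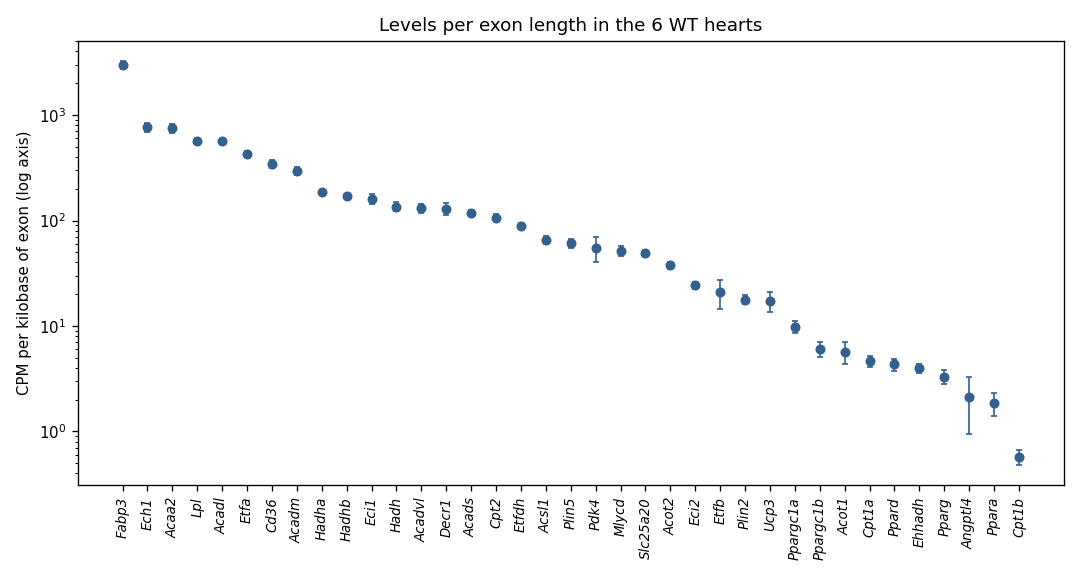
Level of the 37 genes in CPM per kilobase of exon (y axis, log scale), mean ± SD over the 6 WT hearts, ordered from highest to lowest (x axis). Fabp3 leads at 2989 CPM per kilobase and Cpt1b, whose count is uncertain, is last at 0.571.

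Each knockout effect was then set against the effect of Cre alone, in a fit of all 48 libraries that tests the difference of the 2 log2 fold changes. This fit has 1 spread for all lines, although hearts of the CBK line varied more than those of the Cre CON line. Its intervals and p-values carry that limit. None of the 37 genes was called for CBK minus Cre CON (2.47% of all genes called), CEK minus Cre CON (0.00602%) or CBK/CEK minus Cre CON (1.34%), and DESeq2 also called none. At an unadjusted p under 0.05 edgeR passed 2, 1 and 6 of the 37. The share of all genes at that level was not counted for these differences. Pdk4 had the largest difference for CBK/CEK minus Cre CON, at 1.46 (SE 0.43, 95% interval 0.59 to 2.33, adjusted p = 0.0902 by edgeR). With limma voom and 1 weight per line the same difference was 1.56 and passed (adjusted p = 0.0194). For the genes that fell the differences were smaller and their intervals held 0: in CBK/CEK minus Cre CON, Ech1 was at -0.34 (-0.73 to 0.05), Eci2 at -0.19 (-0.48 to 0.10), Hadh at -0.15 (-0.41 to 0.10), Decr1 at -0.12 (-0.43 to 0.19) and Slc25a20 at -0.09 (-0.33 to 0.14). In CBK minus Cre CON, Ech1 was at -0.37 (-0.76 to 0.02) and Hadh at -0.17 (-0.43 to 0.09).

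The knockout lines were also compared with each other. None of the 37 genes was called for CBK/CEK minus CBK (0.162% of all genes called), for CBK minus CEK (3.19%) or for the departure of the CBK/CEK effect from the sum of the CBK and CEK effects counted from Cre CON (0.012%), and DESeq2 called none. Without adjustment edgeR gave a p under 0.05 for 2, 4 and 0 of the 37. Pdk4 was at 0.73 (95% interval -0.13 to 1.60) for CBK/CEK minus CBK, and at 0.77 (-0.45 to 1.99) for the departure from the sum. Ech1 was at -0.44 (-0.83 to -0.05, adjusted p = 0.289 by edgeR) for CBK minus CEK and at 0.04 (-0.35 to 0.43) for CBK/CEK minus CBK. Against WT, none of the 37 was called in BMAL1 FLOX (0.265% of all genes called), E4BP4 FLOX (0%) or BMAL1/E4BP4 FLOX (0.283%) hearts, where edgeR passed 1, 1 and 3 of them at an unadjusted p under 0.05. The share of all genes at that level was not counted, either against WT or between the knockout lines.

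**Figure D5:**
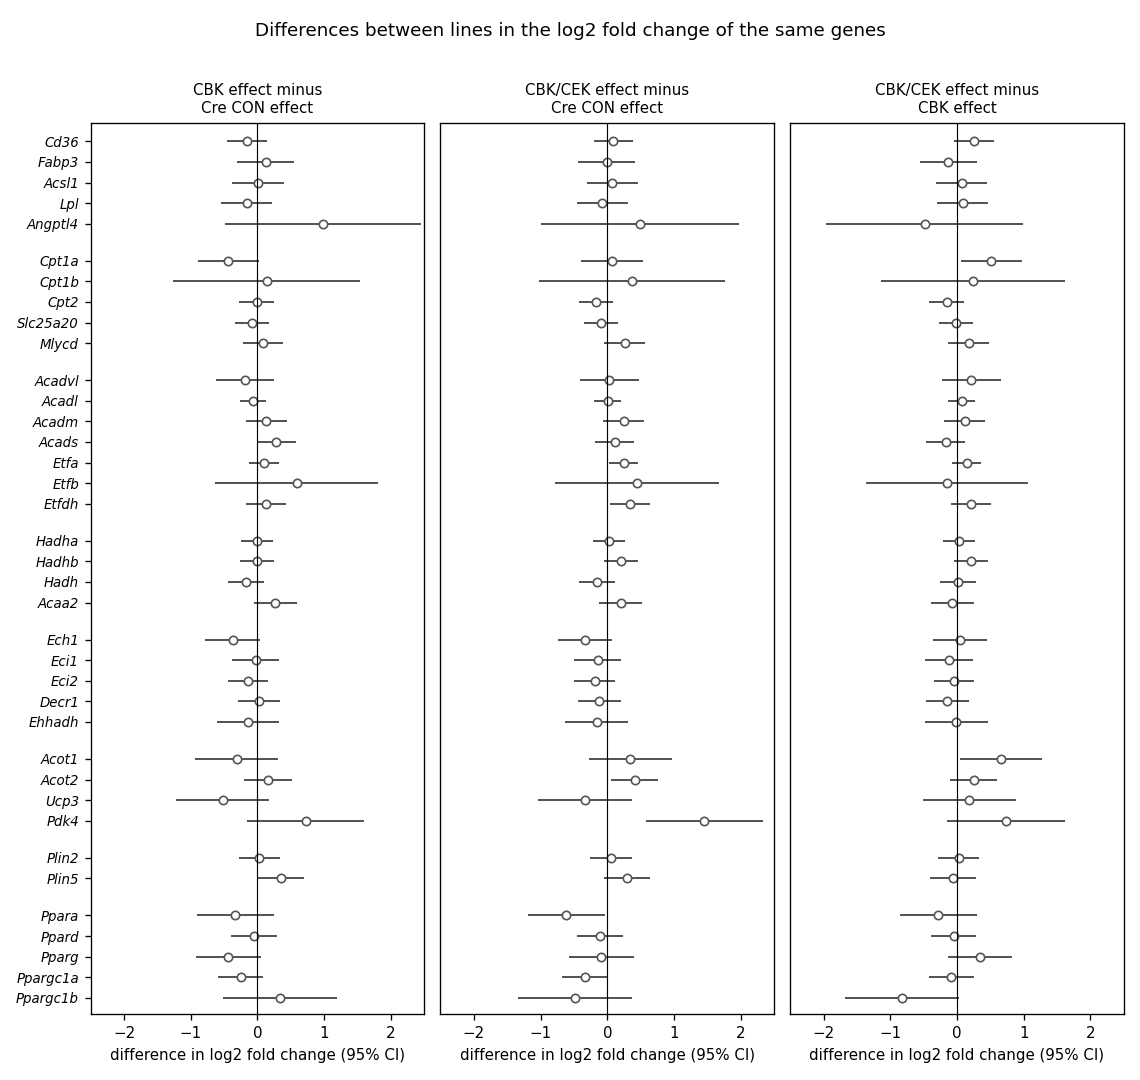
Difference between lines in the log2 fold change of each of the 37 genes (x axis) with 95% confidence intervals, from the fit of all 48 libraries, in the same gene order (y axis). No point is filled because none was called, and Pdk4 in the CBK/CEK minus Cre CON panel is at 1.46 with an interval of 0.59 to 2.33.

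Marker lists of other cells had estimates mostly on 1 side of 0 in each of the lines, in different lists. Of all genes, 15.1%, 8.6%, 14% and 9.02% had an unadjusted p under 0.05 in the CBK, CEK, CBK/CEK and Cre CON lines. All 9 macrophage markers in Cre CON hearts had estimates above 0 (median 0.30), 1 of them called (Lyz2), and their summed level ran from 344 through 389 to 499 CPM, against 289, 303 and 332 CPM in WT. In CEK hearts all 9 were also above 0 (median 0.36, 0 called by edgeR, 5 at an unadjusted p under 0.05), at 277, 349.8 and 384 CPM, against 207, 249 and 357 CPM in E4BP4 FLOX. The macrophage median was 0.10 in the CBK and -0.09 in the CBK/CEK line.

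Of the 10 cardiomyocyte markers, 9 had estimates below 0 in the Cre CON and 9 in the CEK line (0 called by edgeR, 5 and 2 at an unadjusted p under 0.05), and their sum had a median of 64762 CPM in Cre CON and 69519 CPM in WT, and of 66317 CPM in CEK and 67958 CPM in E4BP4 FLOX. In the CBK and CBK/CEK lines 3 and 8 of the 10 were below 0 (medians 0.03 and -0.06), and Pln, the brake on the calcium pump, was called lower in CBK hearts (-0.49, adjusted p = 0.0198 by edgeR).

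Endothelial markers had 9 of 10 estimates below 0 in CBK (median -0.14), in CBK/CEK (median -0.14) and in Cre CON hearts (median -0.06), and 3 of 10 in CEK hearts (median 0.03). Their sum was 699, 757 and 813 CPM in CBK, against 761, 812 and 942 CPM in BMAL1 FLOX hearts, and 694, 743 and 786 CPM in CBK/CEK, against 745, 817 and 849 CPM in BMAL1/E4BP4 FLOX hearts. The medians of the 37 genes were -0.15 with CBK, -0.08 with CBK/CEK, -0.14 with Cre CON and -0.20 with CEK.

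The 6 mural markers were all below 0 in CBK hearts (median -0.13), and 4, 5 and 3 of them in the CBK/CEK, CEK and Cre CON lines. The 7 fibroblast markers had medians of 0.17, 0.05, 0.10 and 0.10 in the CBK, CEK, CBK/CEK and Cre CON lines, with Col3a1 called in Cre CON hearts. The 5 erythroid markers had medians of -0.13, -0.21, -0.20 and -0.26 and the 8 adipocyte markers of -0.01, -0.24, 0.17 and -0.22, in the same order, with 0 called by edgeR and at most 1 of a list at an unadjusted p under 0.05. In Cre CON hearts 7 of the 8 adipocyte markers were below 0, while Ucp1 was at 4.88 (SE 1.05, adjusted p = 0.0649 by edgeR). The adipocyte markers together reached at most 61.3 CPM in Cre CON and 151 CPM in WT hearts. The 3 atrial markers were all above 0 in CBK (median 0.25), CEK (median 0.75) and CBK/CEK hearts (median 0.85), and all below 0 in Cre CON hearts (median -0.10), with 0 called by edgeR and 0 at an unadjusted p under 0.05. Their sums were 55.5, 1840.3 and 2437 CPM in CEK, against 749, 959 and 1245 CPM in E4BP4 FLOX, and of 883, 1522 and 1905 CPM in CBK/CEK, against 81.6, 932 and 1299.7 CPM in BMAL1/E4BP4 FLOX hearts. No marker was at 0 in all libraries of a group, and the part of these markers in the results was not tested.

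Other genes of the pathway were counted in 5 further lists, beside 2.55% of all genes called higher and 2.59% called lower in the CBK line, and 2.2% and 2.08% in the CBK/CEK line. Among 14 other genes of uptake and activation, 2 rose and 2 fell in CBK hearts. Acsl6, an acyl-CoA synthetase, fell to 4.53 ± 0.736 CPM in CBK, against 9.95 ± 1.66 CPM in BMAL1 FLOX (log2 -1.13, edgeR adjusted p = 0.00021), and Slc22a5, the plasma membrane carnitine transporter, fell to 15.3 ± 3.43 CPM, against 23.6 ± 3.46 CPM (log2 -0.63). Dbi, the acyl-CoA binding protein, rose to 173.5 ± 70.9 CPM in CBK, against 97.2 ± 10.5 CPM in BMAL1 FLOX (log2 0.84), and Slc27a4, a fatty acid transport protein with synthetase activity, rose to 38.9 ± 8.56 CPM, against 27.6 ± 1.96 CPM (log2 0.50). In CBK/CEK hearts 1 of the 14 rose, Dbi to 172.1 ± 29 CPM, against 90 ± 22.4 CPM in BMAL1/E4BP4 FLOX (log2 0.94, adjusted p = 0.000854), and 1 fell, Acsl6 to 6.61 ± 1.77 CPM, against 11.6 ± 1.45 CPM (log2 -0.82), while DESeq2 called 3 higher. In Cre CON hearts the log2 estimates were -0.21 for Acsl6 and -0.09 for Dbi, and the difference from Cre CON passed for Dbi in both lines (0.92 and 1.03) and for Acsl6 (-0.92) and Slc27a4 (0.49) in the CBK line.

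Of 20 other genes that handle acyl-CoA, most of them mitochondrial, 3 fell and 0 rose in CBK hearts, and 1 fell in CBK/CEK hearts. Acss1, which activates acetate in mitochondria, was at -0.55 in CBK hearts on the log2 scale, Slc25a42, a mitochondrial coenzyme A carrier, at -0.63, and Nudt7, a peroxisomal coenzyme A hydrolase, at -0.52 in CBK and -0.42 in CBK/CEK hearts. With Cre CON their estimates were -0.23, -0.12 and -0.26, and edgeR called no gene of this list for CBK or CBK/CEK minus Cre CON, with 2 and 1 at an unadjusted p under 0.05. For these differences the share of all genes at that level was not counted. The 3 that fell in CBK hearts became 4 with DESeq2, 5 in the fit of all 48 libraries and 2 without the libraries that stood apart. Of 21 peroxisomal genes tested of 23 listed, 0 were called in CBK hearts by edgeR in the fit of that line. At an unadjusted p under 0.05, 5 of them passed, beside 15.1% of all genes. DESeq2 called 2, edgeR in the fit of all 48 libraries 3, and edgeR without the libraries that stood apart 1. In CBK/CEK hearts 1 rose, Acox3, a peroxisomal acyl-CoA oxidase, at 0.46. Among 25 other regulators, 1 rose and 2 fell in CBK hearts: Lpin1, a phosphatidate phosphatase and coactivator, at 0.47, Klf15, a transcription factor of cardiac lipid metabolism, at -0.59, and Acacb, which makes the malonyl-CoA that blocks the shuttle, at -0.46. The 2 that fell became 4 with DESeq2, 6 in the fit of all 48 libraries and 1 without the libraries that stood apart. Klf15 was also the 1 regulator that fell in CBK/CEK hearts (-0.46, adjusted p = 0.00632 by edgeR). The difference from Cre CON passed in the CBK line for Klf15 (-0.54) and for Lpin1 (0.55).

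Of 17 genes tested of 19 listed for PPAR response, lipid storage and the pyruvate dehydrogenase switch, 2 rose and 2 fell in CBK hearts, and 2 rose and 4 fell in CBK/CEK hearts. The 2 that fell in CBK hearts became 5 with DESeq2, 6 in the fit of all 48 libraries and 3 without the libraries that stood apart. Cidea, a droplet protein, rose to 54.6 ± 15.2 CPM in CBK, against 28.8 ± 4.83 CPM in BMAL1 FLOX (log2 0.92), and Ucp2 to 323 ± 139.7 CPM, against 159.7 ± 38.6 CPM (log2 1.01). G0s2, an inhibitor of triglyceride lipase, fell in both lines (-0.59 in CBK and -0.53 in CBK/CEK hearts). Slc25a34, a mitochondrial carrier, also fell in both (-0.63 and -0.32), and its estimates in CEK and Cre CON hearts were -0.40 and -0.28, not called. In CBK/CEK hearts Pdp2, the phosphatase that switches pyruvate dehydrogenase back on, fell to 19.7 ± 4.71 CPM, against 31.4 ± 5.19 CPM in BMAL1/E4BP4 FLOX (log2 -0.67, adjusted p = 0.00903 by edgeR). Pdk3, another pyruvate dehydrogenase kinase, rose there to 4.71 ± 0.6252 CPM, against 2.96 ± 0.557 CPM (log2 0.68), and Ucp2 rose (log2 0.60). The estimates in Cre CON hearts were -0.38 for Pdp2, 0.62 for Pdk3 and 0.36 for Ucp2, and the differences from Cre CON of these 3 genes did not pass in the CBK/CEK line. In the CBK line the difference from Cre CON passed for 1 gene of this list, Cidea (0.87). No gene of the 5 lists was called in CEK or Cre CON hearts by edgeR in the main fits of single lines. These used all 12 libraries, the filter on low counts and no added term. Without that filter edgeR called 0, 1, 0, 1 and 3 in CEK hearts and 0, 0, 0, 0 and 1 in Cre CON hearts, in the order in which the lists are given above, and without Cre CON replicate 1 it called 0, 1, 0, 0 and 2 there. In CEK hearts 1 gene of the last list was called in each of 3 other edgeR fits. They were the fit of all 48 libraries, the fit with the animal number run as a term and the fit without the libraries that stood apart. At an unadjusted p under 0.05, in the order of the lists, 4, 7, 0, 7 and 5 genes passed in CEK hearts, beside 8.6% of all genes. In Cre CON hearts 0, 7, 5, 2 and 4 passed, beside 9.02% of all genes. DESeq2 called 1, 1, 0, 1 and 3 in CEK hearts and 0, 1, 0, 0 and 1 in Cre CON hearts.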

How the data were processed

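Gene counts of 48 libraries were used as deposited. Per the labels' protocols, RNA was extracted with an RNeasy kit and 1.3 µg of total RNA went into SMARTER mRNA-Seq libraries. The submitters' processing notes name bcl2fastq 2.18.0.12, STAR 2.7.9a, HTSeq 0.11.1 and the build GRCm39. No annotation release, strandedness or read length is stated there. The HTSeq summary lines were left out of library sizes, and 53.0% to 73.1% of the records of a library were assigned to genes. Identifiers were matched to symbols for 52093 of 53700 rows.

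Each line was fitted alone (12 libraries) with edgeR 4.0.16 in R 4.3.3: filterByExpr over the 8 groups, TMM normalisation, a robust quasi-likelihood fit and Benjamini-Hochberg adjustment over 16623 genes, with calls at an adjusted p under 0.05. Differences between lines used 1 fit of all 48 libraries. Levels are CPM on TMM-scaled library sizes, and library means used a pseudocount of 0.5 CPM. The pipeline was tested on simulated counts with 200 genes changed in each line. It recovered 23.7%, 35.5%, 23.1% and 58.3% of 1.5-fold changes in the CBK, CEK, CBK/CEK and Cre CON lines. False calls were 3.70%, 3.97%, 6.90% and 6.04% of calls in the same order. Of 2-fold changes the pipeline recovered 54.5%, 70.6%, 67.2% and 75.5%, in the same order. Of 3-fold changes it recovered 75.0%, 72.9%, 81.0% and 81.0%. A gene that did not pass can therefore still have changed by 1.5-fold, 2-fold or 3-fold, and counts of calls are not directly comparable between lines. Alternatives included DESeq2 1.42.0, limma 3.58.1 voom, other filters and normalisation, and left-out libraries. The p-values measure the spread between libraries that the labels call biological replicates.

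The genes and the further lists were chosen with earlier results of these data known. Values are given by library range for the genes called in any of the 4 lines and by range or count for the rest, and of each further list up to 4 called genes are named, by smallest adjusted p. Other genes with values in the text were chosen after their values were seen. Samples of a line were not treated as paired by replicate number, but pairing was not excluded. The correlation of same-numbered deviations was not above 0.1 for every pair in any line. In the CBK/CEK line it was 0.17, 0.19 and 0.21 for replicates 2, 4 and 5, each of which correlated best with its own number. It was -0.12, 0.03 and -0.17 for replicates 1, 3 and 6 of that line.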

Additional observations from a re-analysis of the deposited data

Results flagged for a closer look

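In 18 of 296 combinations of a gene and a group of 6, the highest or lowest heart stood far from the other 5 (its gap to the nearest, as a share of the group's range, was over Dixon's 95% critical value). Chance alone gives about 1 in 20 groups. The combinations fell on 15 of the 37 genes.

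Among genes called in a line, Pdk4 was highest at 644 CPM in CBK replicate 6 and at 414 CPM in CEK replicate 6, Slc25a20 was lowest at 144 CPM in CBK/CEK replicate 6, and Eci2 was highest at 133 CPM in CEK replicate 5. BMAL1 FLOX replicate 4 stood highest for Ucp3 at 104 CPM, Angptl4 at 18.1 CPM and Etfa at 875 CPM. Angptl4 was also highest in CEK replicate 6, at 15.5 CPM. Cre CON replicate 1 stood highest for Acot1 at 38.1 CPM and Acot2 at 98.3 CPM. BMAL1/E4BP4 FLOX replicate 6 stood highest for Ppara at 19.9 CPM and Ppargc1b at 73.1 CPM, and CBK replicate 5 for Ppargc1b at 77.8 CPM and Etfb at 124.4 CPM. In E4BP4 FLOX, replicate 3 was lowest for Acsl1 at 555 CPM and replicate 6 highest for Cpt1b at 4.30 CPM. In WT, replicate 3 stood apart for Acadvl at 415 CPM and replicate 6 for Ppargc1a at 80.4 CPM.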

How the results depend on the processing

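No result changed sign among those called. In the CBK/CEK line Pdk4, Ech1 and Hadh passed under 8 of 8 alternatives, and Slc25a20, Eci2 and Decr1 under 6 of 8. The 2 genes called lower in the CBK line became 1 with DESeq2-type (RLE) size factors or a filter of 1 CPM, 4 with DESeq2, and 5 in the fit of all 48 libraries or without the libraries that stood apart. In the CEK line the count of 0 became 1 with DESeq2 and 2 without a filter on low counts (Hadh and Ucp3). In the CBK/CEK line the 5 called lower became 8 with DESeq2. In the Cre CON line the 0 became 1 without Cre CON replicate 1 (Acot2). For CBK/CEK minus Cre CON the 0 called higher became 1 with limma voom (Pdk4). The cause of these changes was not tested.

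With the replicate number as a block, the count of genes called lower was 0 in the CBK line and 3 in the CBK/CEK line (Ech1, Hadh and Ucp3), and not every sample correlated best with its own number. Over all genes, the calls in the CBK line were 854 and became 1396 in the fit of all 48 libraries. Those in the CEK line were 24 and became 109 with DESeq2, 144 without a filter, 51 in the fit of all 48 and 9 with the block. Those in the CBK/CEK line were 711 and became 1075 with the animal number run as a term. Those in the Cre CON line were 10 and became 128 with DESeq2, 62 without a filter, 91 without Cre CON replicate 1 and 3 in the fit of all 48. The typical spread between hearts (median biological coefficient of variation) of 23.1% for CBK, 21.3% for CEK, 20.7% for CBK/CEK and 15.0% for Cre CON limits small changes. Counts as low as 7 limit Cpt1b.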
